A study of Homo sapiens with 12 samples.

Results

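The coding HOX genes were followed in IMR90 cells, a human lung fibroblast line, as the cells went from growth into Ras-induced senescence. They were taken as every symbol of the form HOXA, HOXB, HOXC or HOXD plus a number, which gave 39 of the 27106 genes measured. Only 12 of the 39 reached 10 normalized counts in at least 2 of the 12 libraries, 5 in HOXA, among them HOXA2, HOXA3, HOXA4 and HOXA5, and 7 in HOXB, HOXB2 to HOXB8. All 12 libraries came from IMR90 cells carrying hTERT, the catalytic subunit of telomerase, and an oncogenic Ras joined to a tamoxifen-responsive receptor domain (RasERT2). Doxycycline at 0.5 ug/ml induced either a scramble hairpin RNA (shScr, labelled WT) or a hairpin that targets the receptor of interleukin-1 (shIL1R, labelled IL1R KD). The cells then received 200 nM tamoxifen, which switches Ras on, or ethanol. RNA was taken from growing cells at day 0, at day 4, when the secretory phenotype of senescence begins, and from senescent cells at day 10. Each of the 6 groups held 2 libraries. The labels number them 1 and 2, and the series design names 2 hairpins against the receptor, so replicates 1 and 2 of shIL1R may or may not carry different hairpins. Nothing says that replicates were separate cultures, so a p-value here reflects only how far these samples differed, which may be technical.

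HOX genes encode homeodomain transcription factors that give cells their address along the head-to-tail axis of the embryo. They lie in 4 clusters (HOXA to HOXD), and genes with the same number in different clusters are paralogs. Low numbers sit at the 3′ end of a cluster and are used towards the head, high numbers at the 5′ end and towards the tail. Cultured fibroblasts keep a HOX pattern that reflects the body site they came from. Polycomb complexes hold unused HOX genes silent, Trithorax complexes keep used ones active, and retinoic acid can switch on the 3′ genes during development.

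Promoter sequence was available for 3 of the 12 expressed genes, HOXA2, HOXA3 and HOXA4. They are shown because these neighbours behaved differently over the senescence course described below: HOXA2 and HOXA3 fell and HOXA4 was not called. Each run is the 250 bases before the RefSeq start, 5′ to 3′ on the minus strand of GRCh38.p14, the gene's own strand. The windows are chr7:27102684-27102933 for HOXA2, chr7:27152584-27152833 for HOXA3 and chr7:27130758-27131007 for HOXA4. By these coordinates the HOXA3 window lies upstream of the HOXA4 window, not between those of HOXA2 and HOXA4. It therefore belongs to a HOXA3 start beyond HOXA4, and which start these cells used was not tested. Capitals mark matches, on either strand, to any of 6 motifs: TATAAA (the TATA box core), AGGTCA (bound by retinoic acid receptors), TGATNNAT (a PBX-HOX site), TGACAG (the MEIS core), CCAAT (the CCAAT box) and TGANTCA (an AP-1 site).
HOXA2: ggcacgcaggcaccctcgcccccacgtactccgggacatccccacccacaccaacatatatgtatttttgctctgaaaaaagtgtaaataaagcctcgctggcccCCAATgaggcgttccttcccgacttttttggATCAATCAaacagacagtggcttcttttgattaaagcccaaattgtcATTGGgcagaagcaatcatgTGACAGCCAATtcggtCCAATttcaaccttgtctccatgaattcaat
HOXA3: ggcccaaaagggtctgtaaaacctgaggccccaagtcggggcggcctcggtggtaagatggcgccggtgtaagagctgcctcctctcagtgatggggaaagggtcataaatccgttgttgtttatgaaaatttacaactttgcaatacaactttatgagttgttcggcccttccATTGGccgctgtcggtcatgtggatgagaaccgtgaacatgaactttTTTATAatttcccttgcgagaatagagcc
HOXA4: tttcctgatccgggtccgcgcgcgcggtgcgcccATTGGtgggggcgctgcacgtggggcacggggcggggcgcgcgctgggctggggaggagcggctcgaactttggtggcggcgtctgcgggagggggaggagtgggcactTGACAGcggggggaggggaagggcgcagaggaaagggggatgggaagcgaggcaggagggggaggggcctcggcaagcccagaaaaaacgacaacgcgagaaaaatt
The HOXA2 window held 4 CCAAT boxes, 1 of them directly beside a MEIS core, and 1 PBX-HOX site. The HOXA3 window held 1 TATA box core and 1 CCAAT box. In the HOXA4 window there was 1 MEIS core and 1 CCAAT box. The HOXA4 window also held 26 CpG dinucleotides, against 8 for HOXA2, 11 for HOXA3 and a median of 11 over 35116 RefSeq promoters. Among those 35116 promoters 32.0% held CCAAT, 13.0% TGACAG, 6.47% TGATNNAT and 10.7% TATAAA. No match to AGGTCA (12.1% of all promoters) or TGANTCA (6.57%) lay in these 3 windows, which says only that these letters are not there.

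**Figure D1:**
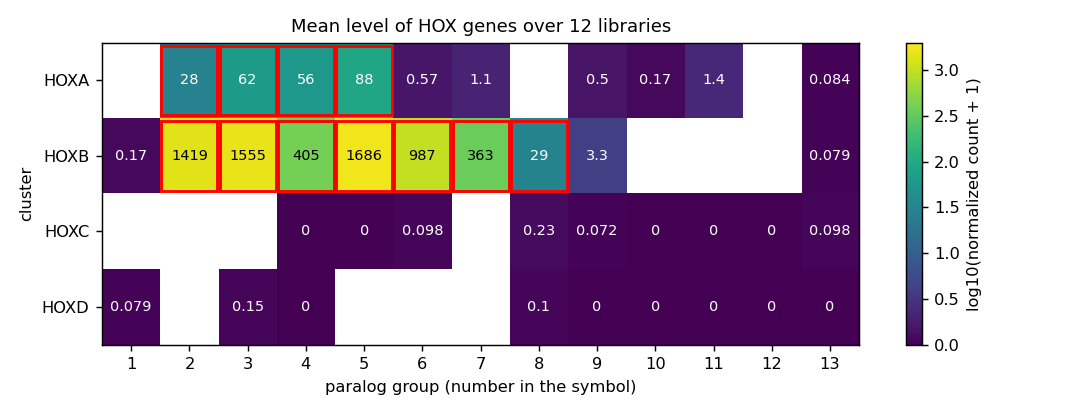
Mean normalized count of HOX genes over the 12 libraries, with clusters as rows and the paralog number as columns; colour is log10 of the mean plus 1, printed numbers are means, white cells have no gene or none shown, and red frames mark genes that reached 10 in at least 2 libraries. The framed genes are HOXA2 to HOXA5 and HOXB2 to HOXB8, and no HOXC or HOXD gene is framed.

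Expression was restricted by cluster. The HOXB cluster took 94.5% to 97.2% of all HOX reads in each library, with 78925 reads over the 12 libraries, against 3407 for HOXA. The 9 HOXC genes together had 6 reads and the 9 HOXD genes 4 reads in the 12 libraries. Of these genes, 11 were at 0 in every library: HOXC4, HOXC5, HOXC10, HOXC11, HOXC12, HOXD4, HOXD9, HOXD10, HOXD11, HOXD12 and HOXD13. At this depth a count of 0 allows up to 3 reads, or 2.50 to 3.60 normalized counts, in a library. Within HOXA, 5 genes passed the threshold and HOXA6, HOXA7, HOXA9, HOXA10, HOXA11 and HOXA13 did not. Within HOXB, HOXB1, HOXB9 and HOXB13 did not. Just inside the threshold were HOXA2, from 5.06 to 44.0 normalized counts, and HOXB8, from 8.61 to 62.5. Just outside were HOXB9 and HOXA11, which both peaked at 8.10.

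Among the 27 genes under the threshold, HOXB9 was the most read, with 38 reads in all. HOXB9 stood between 0.898 and 2.58 normalized counts in the 4 day 0 libraries and between 4.72 and 8.10 in the 4 day 10 libraries. HOXA11 was at 0 in every day 0 library and between 1.13 and 8.10 at day 10. HOXA7 ran the other way, from 0.919 to 4.30 at day 0 to 0 in both shScr libraries and 1.20 and 1.13 in the shIL1R libraries at day 10. HOXA9 had 0.898 to 2.50 at day 0 and 0 in all 8 later libraries. These values rest on 8 reads or fewer per library and were not tested in the main fit.

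Levels between genes were compared per kilobase of merged exon, from GENCODE 29 models on GRCh38, since the counting annotation is not given. In the 4 growing day 0 libraries HOXB2 was highest, at 871 to 914 normalized counts per kb, followed by HOXB5 at 732 to 875, and these 2 overlapped. HOXB6 came next at 434 to 597 per kb. HOXB3 at 284 to 330 and HOXB7 at 250 to 304 per kb overlapped, and HOXB4 followed at 126 to 137. Every HOXA gene was lower per kb than HOXB4, from HOXA5 at 54.0 to 82.1 down through HOXA4 and HOXA3 to HOXA2 at 19.5 to 24.3, with neighbours overlapping from HOXA4 on. HOXB8 was last, at 4.72 to 11.6 per kb. The order did not follow the position in the cluster: within HOXB the level dropped from HOXB2 to HOXB4, was high again at HOXB5, and ended low at HOXB8.

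Facts of the whole series that touch these values follow. Recovered reads ran from 24140324 to 30127727 per library, and 1 read was worth 0.834 to 1.20 normalized counts. IL1R1, the target of the hairpins, stood between 1240 and 1580 normalized counts in the 6 shScr libraries and between 86.4 and 731 in the 6 shIL1R libraries. All 8 fibroblast markers passed the threshold. Of the lung mesenchyme markers TBX5, FOXF1 and TCF21 passed and TBX4 did not (highest 3.54). NKX2-1, the lung epithelial factor, and CDH5, a defining endothelial gene, were at 0 in all libraries. Of 6 epithelial markers 2 passed, KRT8 and KRT18, and the list summed to 2058 to 3300 over all groups. Smooth muscle markers (4 of 4 passed) summed to 2260 to 3908, and neural markers (2 of 3 passed) to 3795 to 6933. Endothelial markers, 4 of 6 above the threshold, rose as a sum from 32.7 to 50.5 at day 0 to 361 to 714 at day 10, most of it TIE1. The leukocyte sum, 1 of 5 above the threshold, was 0 to 9.88 at day 0, 125 to 152 in shScr and 10.2 to 40.8 in shIL1R at day 10. LAPTM5 made up most of the leukocyte sum, while PTPRC peaked at 3.04. Whether any of these marker reads came from other cell types was not tested, nor was their part in the HOX results.

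Replicate 2 of shIL1R at day 10 stood apart from the other 3 day 10 libraries, by genes chosen after their values were seen. MKI67, a proliferation marker, was 849 normalized counts there against 216 to 257 in the other 3. LMNB1, a lamina gene lost in senescence, was 216 against 63.5 to 90.1. CDKN1A, the p21 inhibitor of cell division, was 37470 against 65270 to 79731. CDKN2B, another inhibitor of cell division, was highest in this library, at 3079 against 1486 to 2257. HRAS was 25280 normalized counts in this library, 37518 in replicate 1 of shIL1R and 50789 and 51791 in the shScr libraries. On the first principal component of all tested genes, which held 68.9% of the variance, it lay at 45.9, the other 3 at 77.2 to 90.5 and the 4 growing libraries at −74.3 to −68.8. The shIL1R results at day 10 are therefore also given without it. Among the day 4 libraries, replicate 2 of shIL1R likewise had the highest MKI67, 2831 against 1590 to 2092. It also had the lowest CDKN1A (18067 against 28391 to 36085) and the lowest HRAS (15523 against 19278 to 29774).

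In shScr cells, several HOX genes of low number were lower by day 10 than at day 0. HOXA2, HOXA3, HOXA5, HOXB3 and HOXB4 fell by 2.5-fold or more, HOXB2 and HOXB7 by less, and HOXB8 rose. Of the 12 genes 7 fell and 1 rose from day 0 to day 10 (limma, adjusted p below 0.05). Among all 13924 genes tested, 63.8% were called in this comparison, 31.3% as lower and 32.5% as higher, so 8 of 12 is near the background in number. The median log2 fold change was −0.42 over the 12 genes and 0.01 over all genes tested. HOX genes took 0.0293% and 0.0305% of the reads of the shScr libraries at day 0, 0.0245% and 0.0277% at day 4, then 0.0173% and 0.0157% at day 10. The share was 0.0185% and 0.0289% in the shIL1R libraries at day 10, against 0.0290% and 0.0269% at day 0. In bulk RNA, fewer cells of a type and less RNA per cell cannot be told apart. Values below are normalized counts of replicates 1 and 2, in that order.

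**Figure D2:**
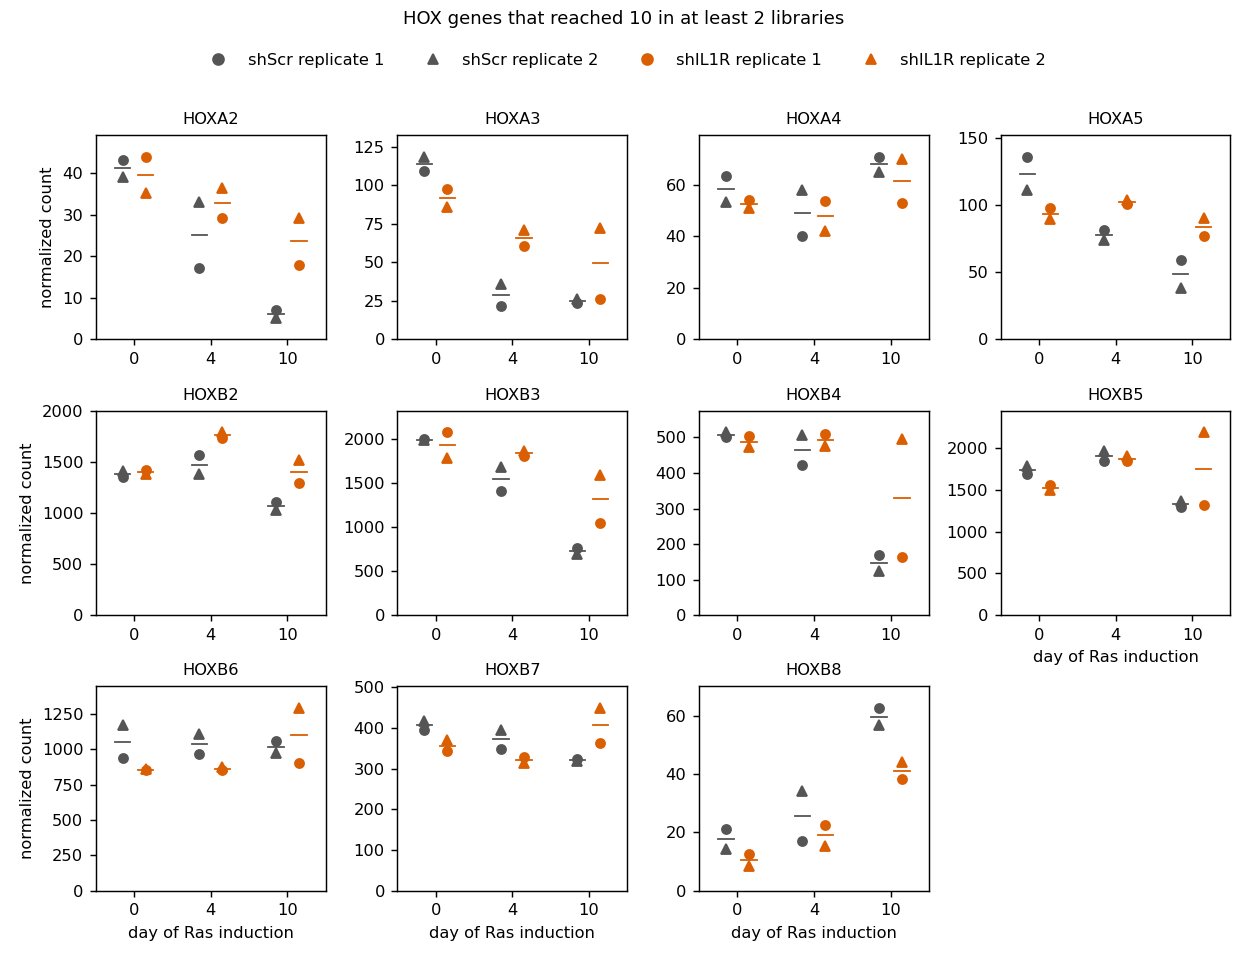
Normalized count of 11 of the 12 expressed HOX genes by day, with shScr in grey and shIL1R in orange, replicate 1 as circles, replicate 2 as triangles and the group mean as a bar; every axis starts at 0. HOXA2, HOXA3, HOXA5, HOXB3 and HOXB4 are lower in both shScr libraries at day 10 than at day 0, HOXB8 is higher, and HOXB4 splits the shIL1R libraries at day 10 into 163 and 497.

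The paralogs of group 2 pattern the hindbrain in development. In shScr cells HOXA2 stood at 43.2 and 39.2 at day 0, 17.1 and 33.1 at day 4, then 7.08 and 5.06 at day 10. These HOXA2 values at day 10 were under 10 normalized counts and rest on few reads, 1 read being worth 1.18 and 1.01 there. Both HOXA2 values lay below every earlier shScr value, a log2 fold change of −2.59 ± 0.37 (SE) from day 0 (limma adjusted p = 9.25e-05). Its paralog HOXB2 was at 1361 and 1411 at day 0, 1573 and 1381 at day 4, then 1110 and 1034 at day 10. The HOXB2 fall was small but without overlap (−0.37 ± 0.10, limma adjusted p = 0.00675), and without replicate 2 of shScr day 10 its adjusted p was 0.0501.

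Group 3 genes act in the hindbrain, the pharyngeal arches and the organs derived from them. HOXA3 was at 109 and 118 at day 0, 21.9 and 36.0 at day 4, then 23.6 and 26.3 at day 10 in shScr cells. Its level was down by day 4, and the further step to day 10 was not called (−0.17 ± 0.39, limma adjusted p = 0.762). The change from day 0 was −1.98 ± 0.39 by day 4 and −2.15 ± 0.39 by day 10 (limma adjusted p = 0.00233 and 0.000588). HOXB3 was at 1991 and 1979 at day 0, 1410 and 1684 at day 4, then 763 and 689 at day 10. The day 4 difference of HOXB3 was not called (−0.37 ± 0.17, limma adjusted p = 0.107), but it was called without either shIL1R day 10 library, where its SE was 0.10 (limma adjusted p = 0.0128 and 0.013). By day 10 HOXB3 had fallen by 1.45 ± 0.17 on the log2 scale (limma adjusted p = 1.98e-05). Whether HOXA3 and HOXB3 differ in timing was not tested. In the GENCODE models HOXA3 shares 258 exon bases with the antisense transcript HOXA-AS2, and HOXB3 shares 279 with HOXB-AS1 and 77 with HOXB-AS3. The libraries were strand-specific per the labels, but the strand setting of the counting is not given, so reads in these stretches cannot be assigned with certainty.

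HOXA4 and HOXB4, the group 4 paralogs, went apart. HOXA4 was at 63.4 and 53.4 at day 0 and 70.8 and 64.8 at day 10 in shScr cells, which was not called (0.22 ± 0.25, limma adjusted p = 0.464). HOXB4, also known for promoting self-renewal of blood stem cells, was at 503 and 514 at day 0, 423 and 507 at day 4, then 169 and 124 at day 10. Its day 10 values lay far below all 4 earlier shScr values (−1.81 ± 0.37, limma adjusted p = 0.00138). HOXB4 and HOXB3 share 121 exon bases on the same strand in the models, so a small part of their reads may be split between them.

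The group 5 genes HOXA5 and HOXB5 are both known for roles in the developing lung and airway. HOXA5 was at 136 and 111 at day 0, 81.8 and 73.8 at day 4, then 59.0 and 38.5 at day 10 in shScr cells. It stepped down without overlap at each time, by 0.65 ± 0.22 to day 4 and by 1.35 ± 0.22 to day 10 on the log2 scale (limma adjusted p = 0.0376 and 0.000288). The day 4 step of HOXA5 lost its call without any 1 of the shScr or shIL1R day 0 libraries or the shScr day 4 libraries (highest limma adjusted p = 0.218), and the day 10 fall kept it in every setting. HOXB5 was at 1689 and 1785 at day 0, 1841 and 1964 at day 4, then 1296 and 1363 at day 10. From day 0 to day 10 HOXB5 was not called (−0.39 ± 0.17, limma adjusted p = 0.0738). It was called lower without either shIL1R day 10 library, where its SE was 0.07 (limma adjusted p = 0.000562 and 0.000587). From day 4 to day 10 it fell by 0.52 ± 0.17 (limma adjusted p = 0.0326), a call lost without any 1 of the 4 libraries compared (highest adjusted p = 0.139).

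The genes further 5′ in the HOXB cluster are HOXB6, HOXB7 and HOXB8. HOXB6 was at 937 and 1170 at day 0 and 1060 and 971 at day 10 in shScr cells, overlapping sets that were not called (−0.05 ± 0.16, limma adjusted p = 0.814). HOXB7 was at 395 and 416 at day 0, 349 and 394 at day 4, then 323 and 319 at day 10. That HOXB7 fall was called (−0.34 ± 0.13, limma adjusted p = 0.0368), but not without any 1 of the 4 shScr libraries of days 0 and 10 (limma adjusted p = 0.0826 to 0.158) nor by DESeq2 (adjusted p = 0.0517). HOXB8, a gene known to hold myeloid progenitors in an immature state when forced on, was at 21.1 and 14.2 at day 0, 17.1 and 34.1 at day 4, then 62.5 and 56.7 at day 10. HOXB8 was the single gene of the 12 that rose in shScr cells (1.72 ± 0.37, limma adjusted p = 0.00182). It remained low per kb, at 31.1 to 34.3 normalized counts per kb at day 10, beside 662 to 711 for HOXB2.

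More HOX genes were called in shScr cells from day 4 to day 10 than from day 0 to day 4. From day 0 to day 4, HOXA3 and HOXA5 fell and no HOX gene rose, 2 of 12 called against 38.3% of all genes tested (18.9% lower and 19.4% higher). From day 4 to day 10, HOXA2, HOXA5, HOXB2, HOXB3, HOXB4 and HOXB5 fell and HOXB8 rose, 7 of 12 called against 44.1% of all genes (22.4% lower and 21.7% higher). The count for days 4 to 10 was 4 when either shScr day 4 replicate 1 or shScr day 10 replicate 2 was left out. Without either shScr day 0 library, either shIL1R day 0 library or replicate 1 of shScr day 4, the count for day 4 against day 0 was 1. For days 4 to 10, HOXA5 and HOXB8 each lost their call in 3 of the fits with 1 library left out. HOXB5 lost it without any 1 of the libraries compared. HOXA2, HOXB2, HOXB3 and HOXB4 kept their fall from day 4 to day 10 in every setting tried, and HOXA3 kept its fall by day 4.

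In cells with the hairpin against the interleukin-1 receptor, fewer HOX changes were called, and the 2 libraries at day 10 differed. HOXA3 (−1.05 ± 0.39, limma adjusted p = 0.0367) and HOXB3 (−0.58 ± 0.17, limma adjusted p = 0.0111) fell from day 0 to day 10, and HOXB8 rose (1.88 ± 0.37, limma adjusted p = 0.00113). These 3 of 12 compare with 60.3% of all genes called in the same comparison (30.3% lower and 30% higher), and the median over the 12 genes was 0.05 beside 0.01 over all genes. That median was −0.17 without replicate 2 and 0.09 without replicate 1. Without replicate 2 of shIL1R day 10, which stood apart, 5 genes were called. HOXA2 (−1.09), HOXA3 (−1.76), HOXB3 (−0.88) and HOXB4 (−1.58) were then lower and HOXB8 (1.79) higher on the log2 scale. Without replicate 1, 4 genes were called and all were higher: HOXB5 (0.52), HOXB6 (0.59), HOXB7 (0.33) and HOXB8 (1.98). The lone library of the group is assumed in these fits to vary like the other groups. Without replicate 1 of shIL1R day 0 the count was 1, and HOXB8 kept its rise in every setting. For the 12 genes the median difference between the 2 shIL1R day 10 libraries was 0.46 on the log2 scale in size, with 11 of 12 higher in replicate 2. Over all genes tested it was 0.25 in size, with a signed median of −0.01. In the other 5 groups the size over the 12 genes was 0.08 to 0.26.

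Individual genes show the split. HOXA3 in shIL1R cells was at 97.9 and 86.1 at day 0, 60.6 and 70.9 at day 4, then 26.4 and 72.2 at day 10. Replicate 1 at day 10 lay next to the shScr values of 23.6 and 26.3, and replicate 2 lay just above the shIL1R values of day 4. HOXB4 was at 504 and 473 at day 0, 510 and 476 at day 4, then 163 and 497 at day 10. Here replicate 1 lay within the shScr range at day 10 of 124 to 169, and replicate 2 within the range of day 0. HOXB3 was at 2070 and 1778 at day 0, 1800 and 1865 at day 4, then 1041 and 1585 at day 10, both day 10 values being above the shScr ones. HOXB5 was at 1559 and 1493 at day 0, 1843 and 1901 at day 4, then 1313 and 2185 at day 10, so its libraries at day 10 lay on both sides of all earlier ones. HOXB8 did not split: it was at 12.6 and 8.61 at day 0, 22.5 and 15.5 at day 4, then 38.4 and 44.0 at day 10. The library with high HOXB4 is the one with the higher MKI67 and lower HRAS and CDKN1A values given above, and their part in the HOX values was not tested.

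**Figure D3:**
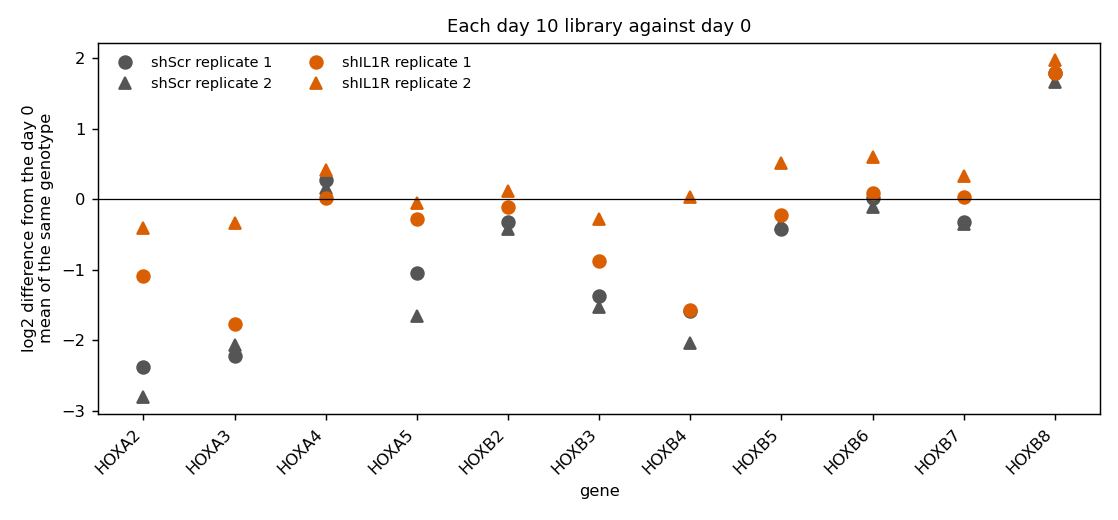
Log2 difference of each day 10 library from the day 0 mean of its own genotype, for 11 of the 12 expressed HOX genes, on log2 of the normalized count plus 1; shScr is grey, shIL1R orange, circles are replicate 1 and triangles replicate 2. Medians over all 12 genes are −0.37 and −0.58 for the shScr libraries and −0.17 and 0.09 for the shIL1R libraries, and HOXB4 lies at −1.58 in shIL1R replicate 1 and 0.03 in replicate 2.

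Other steps in shIL1R cells were few. By day 4 HOXB2 alone was called, higher by 0.33 ± 0.10 on the log2 scale (limma adjusted p = 0.0215), 1 of 12 against 40.4% of all genes (20.1% higher and 20.3% lower). HOXB2 in these cells was at 1428 and 1381 at day 0, 1735 and 1793 at day 4, then 1297 and 1522 at day 10. The day 4 rise lost its call without any 1 of the 4 libraries compared (highest limma adjusted p = 0.11), and without either shIL1R day 10 library HOXB5 was called higher as well, a count of 2. From day 4 to day 10 HOXB2 (−0.33 ± 0.10) and HOXB3 (−0.51 ± 0.17) fell and HOXB8 (1.10 ± 0.37) rose, 3 of 12 against 35.9% of all genes, 18.3% lower and 17.6% higher (limma adjusted p = 0.0243, 0.034 and 0.0393). Without replicate 2 of shIL1R day 10 that count was 5, all lower: HOXA3, HOXB2, HOXB3, HOXB4 and HOXB5. Without replicate 1 it was 2, HOXB6 and HOXB7, both higher. Without either shIL1R day 4 library it was 0.

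The direct comparison of the genotypes sets shIL1R beside shScr cells at each stage. Expression of HRAS differed too: in senescent cells shIL1R was lower by 0.74 ± 0.17 on the log2 scale (limma adjusted p = 0.0257). Averaged over the 3 days, HRAS was lower by 0.47 ± 0.10 (limma adjusted p = 0.0223). Its differences in growing cells (−0.06 ± 0.17) and on day 4 (−0.62 ± 0.17) were not called. Whether the lower HRAS had a part in the HOX differences between genotypes was not tested. In growing cells at day 0, none of the 12 HOX genes was called by limma, edgeR or DESeq2, and none had an unadjusted limma p below 0.05; 0.0646% of all genes were called (0.0287% higher and 0.0359% lower). At day 4 none was called by any of the 3 tools either, with 0.28% of all genes called (0.0431% higher and 0.237% lower). HOXA3 (1.19 ± 0.39) and HOXB2 (0.26 ± 0.10) had an unadjusted limma p below 0.05 there (adjusted p = 0.155 and 0.209). The HOXA3 libraries at day 4 did not overlap, with 60.6 and 70.9 in shIL1R and 21.9 and 36.0 in shScr cells. Without either shIL1R day 10 library its SE was 0.25 and it was called (limma adjusted p = 0.0282 and 0.0292).

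At day 10, HOXA2, HOXA5, HOXB2 and HOXB3 were higher in shIL1R than in shScr cells and none was lower. These are 4 of 12, beside 9.21% of all genes tested in either direction, 4.37% as higher and 4.85% as lower. HOXA2 was at 18.0 and 29.3 in shIL1R cells and 7.08 and 5.06 in shScr cells, with no overlap (1.78 ± 0.37, limma adjusted p = 0.0163). The shScr values of HOXA2 here are those under 10 normalized counts, which rest on few reads. The HOXA5 values were 76.7 and 90.3 against 59.0 and 38.5 (0.79 ± 0.22, limma adjusted p = 0.0488). HOXB2 stood at 1297 and 1522 against 1110 and 1034 (0.39 ± 0.10, limma adjusted p = 0.0345). For HOXB3 the values were 1041 and 1585 against 763 and 689 (0.82 ± 0.17, limma adjusted p = 0.0156). The median over the 12 genes was 0.59, beside 0.00 over all genes tested. Without replicate 2 of shIL1R day 10 the median was 0.18 and without replicate 1 it was 0.74. The called genes without replicate 2 were at 1.44 (HOXA2), 0.68 (HOXA5), 0.28 (HOXB2) and 0.52 (HOXB3).

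The day 10 count depended on single libraries. It was 8 without replicate 1 of shIL1R day 10, adding HOXA3, HOXB4, HOXB5 and HOXB7, and 1 (HOXB3, 0.52, limma adjusted p = 0.0421) without replicate 2, the library that stood apart. Without replicate 2 of shScr day 10 the count was 0, and without any 1 of the 4 day 0 libraries it was 2. HOXA5 lost its call in 14 of 21 settings, edgeR and DESeq2 among them, while DESeq2 also called HOXB4 higher (1.18 ± 0.35, adjusted p = 0.0111). HOXB3 lost it in 2 of 21: when replicate 2 of shScr day 10 was left out, and when only the 4 libraries compared were fitted. In the libraries of replicate 1 alone, HOXA2 was still 18.0 in shIL1R against 7.08 in shScr, and HOXB4 was 163 against 169. HOXB8 and HOXA4 were not called (−0.52 ± 0.37 and −0.15 ± 0.25, limma adjusted p = 0.39 and 0.73).

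**Figure D4:**
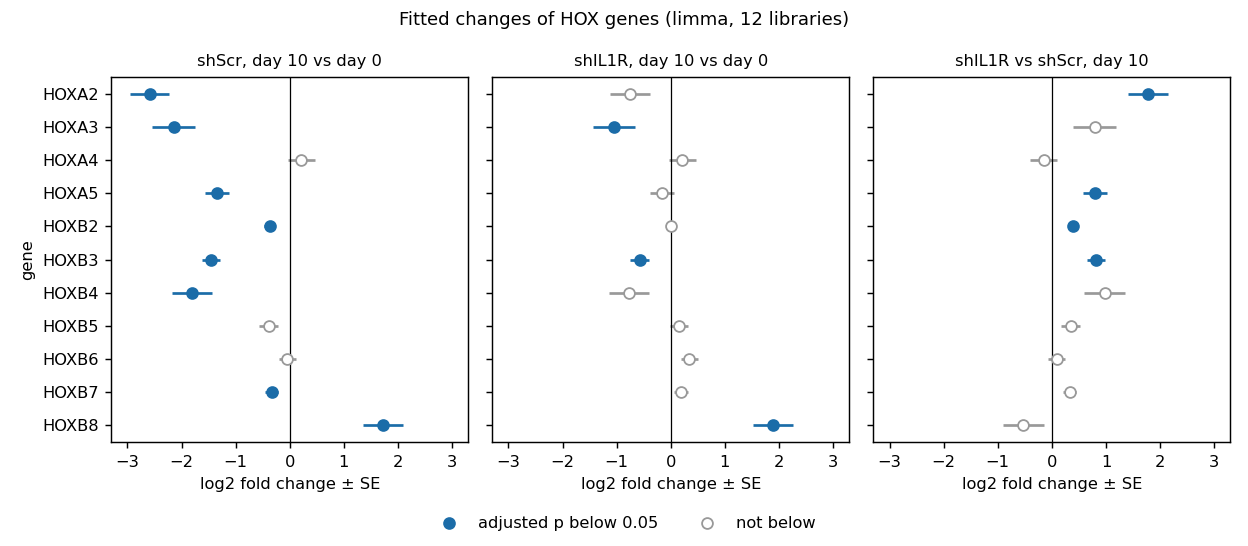
Fitted log2 fold changes with standard errors (limma, 12 libraries) for 11 of the 12 expressed HOX genes, in shScr cells from day 0 to day 10, in shIL1R cells from day 0 to day 10, and between genotypes at day 10; filled points have an adjusted p below 0.05. HOXA2 lies at −2.59 in the left panel, −0.75 (not called) in the middle and 1.78 on the right, and HOXB8 rises in both time panels by 1.72 and 1.88.

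Whether the change from day 0 to day 10 differed between genotypes was tested as an interaction. No HOX gene passed (limma, lowest adjusted p = 0.0769), 5 had an unadjusted p below 0.05, and 2.41% of all genes were called (0.876% higher and 1.54% lower). By edgeR 0 were called, and by DESeq2 2 were, HOXA5 (1.18 ± 0.40, adjusted p = 0.0484) and HOXB3 (0.90 ± 0.25, adjusted p = 0.0128). The largest limma estimates were 1.84 ± 0.52 for HOXA2, 1.18 ± 0.31 for HOXA5 and 1.10 ± 0.55 for HOXA3. Leaving out replicate 2 of shIL1R day 10 gave 1.06 for HOXA5 and 0.39 for HOXA3, and HOXA2 stayed positive with a limma adjusted p of 0.154. Without replicate 1 of shIL1R day 10, 9 genes were called, all in the direction of a higher change in shIL1R cells, and without replicate 2 the count was 0. It was 1 without replicate 1 of shScr day 10. Averaged over the 3 days, HOXB2 was higher in shIL1R cells by 0.22 ± 0.06 on the log2 scale (limma adjusted p = 0.0404), 1 of 12 beside 7.77% of all genes (3.63% higher and 4.14% lower). That count was 6 without replicate 1 of shIL1R day 10 and 2 without replicate 2. It was 0 without replicate 2 of shScr day 10 or any 1 library of days 0 and 4.

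Transcripts of the HOX clusters that do not code for protein were also read. Of 22 such names fixed as a list 17 were in the table and 4 passed the threshold: HOTAIRM1, HOXA-AS2, HOXB-AS1 and HOXB-AS3. In shScr cells from day 0 to day 10, 2 of the 4 fell, beside 63.8% of all genes called. HOXB-AS3, which overlaps HOXB6 and HOXB3 in antisense, was at 353 and 378 at day 0 and 216 and 190 at day 10 in shScr cells, and fell by 0.85 ± 0.14 (limma adjusted p = 0.000265). It fell while HOXB6, whose exons share 283 bases with it, was not called. HOXA-AS2 went from 15.6 and 14.2 to 2.36 and 1.01 in the same cells (−2.61), the last 2 values being 2 reads and 1 read. HOXA-AS2 reached the threshold only through these shScr day 0 libraries, the group where it was high. The filter therefore favoured its call as lower, which is 1 of the 2 counted. Without either shScr day 0 library HOXA-AS2 missed the threshold for testing, and the count was 1. At day 10 HOXB-AS3 was higher in shIL1R cells, at 313 and 393 (0.79 ± 0.14, limma adjusted p = 0.00812), and its interaction was called (1.01). These were 0.62 and 0.84, both still called, without replicate 2 of shIL1R day 10. The genotype difference lost its call without replicate 2 of shScr day 10 (adjusted p = 0.0896), and the count was 2 without replicate 1 of that group. The interaction lost it without replicate 2 of shScr day 10 or any 1 day 0 library. HOTAIRM1, a transcript of the 3′ end of the HOXA cluster, was not called (−0.49 ± 0.23, limma adjusted p = 0.0808).

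The cofactors that bind DNA together with HOX proteins were measured too. Of 11 measured genes of the TALE class (the PBX, MEIS, PKNOX and TGIF homeodomain proteins), 10 passed the threshold and were tested. Of these 10, 4 fell and 2 rose in shScr cells from day 0 to day 10, with a median log2 fold change of −0.30. This stands beside 63.8% of all genes called, 31.3% lower and 32.5% higher. MEIS1, a partner of HOX proteins on DNA, went from 1260 and 1263 to 327 and 278 (−2.06). MEIS2 fell by 1.76 on the log2 scale, and TGIF1, a corepressor of the same class, rose (1.55). At day 10, 2 of the cofactors were higher in shIL1R cells, among them MEIS1 (0.76), at 412 and 631, beside 9.21% of all genes called. Both lost that call without replicate 2 of shScr day 10 and without replicate 2 of shIL1R day 10, where the count of called cofactors was 0. It was 5 without replicate 1 of shIL1R day 10, and 1 without either shScr day 0 library or replicate 1 of shScr day 10.

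Genes of the complexes that silence or maintain HOX loci were also measured. Of 27 Polycomb genes tested (28 were measured) 9 rose and 11 fell in shScr cells from day 0 to day 10 (median 0.14), near the 63.8% called over all genes. EZH2, the H3K27 methyltransferase, went from 1213 and 1122 to 93.2 and 61.8 (−3.92), CBX2 fell by 2.77 and PHF19 by 1.46, and JARID2 rose (2.10). EZH2 fell in shIL1R cells too, to 98.3 and 109 at day 10. PHC1 alone was called between genotypes at day 10 (0.60, and 0.59 without replicate 2 of shIL1R day 10), and not called when shScr day 10 replicate 2 was left out. The Polycomb count between genotypes was 6 without replicate 1 of shIL1R day 10, and 2 without either shIL1R day 4 library or replicate 1 of shScr day 10. Of 15 Trithorax, MLL and demethylase genes tested (16 were measured) 5 rose and 6 fell (median 0.18), again near the 63.8% of all genes. Called were, among others, KDM6B, an H3K27 demethylase (2.15), DOT1L (0.83), PSIP1 (−2.27) and ASH2L (−0.83). The Trithorax count was 7 without replicate 2 of shScr day 0. None of the 15 was called between genotypes at day 10, where 1 had an unadjusted limma p below 0.05, and 1 was called without replicate 1 of shScr day 10 or of shIL1R day 10.

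In the retinoic acid pathway 18 genes were measured and 9 passed the threshold. Of these 9, 4 rose and none fell in shScr cells (median 0.65), beside 63.8% of all genes called and 32.5% called higher. The largest change was that of CYP26B1, which breaks down retinoic acid, from 7.35 and 2.50 at day 0 to 270 and 282 at day 4 and 987 and 735 at day 10 (7.30 ± 0.40). RARA, a retinoic acid receptor, rose (1.56), RDH10, an enzyme of its synthesis, rose (1.08), and RXRA rose by less (0.36), a call that ended when shScr day 0 replicate 2 or shScr day 10 replicate 1 was left out. CYP26B1 was lower in shIL1R cells at day 10, at 353 and 219 (−1.61). DHRS3 (1.80), which turns retinal back to retinol, and RXRA (0.47) were higher, so 3 of 9 were called beside 9.21% of all genes. These 3 calls ended without replicate 2 of shScr day 10 and without replicate 2 of shIL1R day 10, where the count was 0. The count was 5 without replicate 1 of shIL1R day 10, 1 without either shIL1R day 0 library, and 2 without either shScr day 0 or shIL1R day 4 library. The interaction of CYP26B1 was called (−3.32, and −2.98 without replicate 2 of shIL1R day 10), but not without replicate 2 of shScr day 0, either shIL1R day 0 library or replicate 2 of shScr day 10. It combines the day 10 difference (−1.61) with an opposite one at day 0, 1.71 higher in shIL1R cells and not called. The shScr day 0 values of CYP26B1, 7.35 and 2.50, rest on few reads.

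Of 30 other transcription factors of positional identity 13 passed the threshold. They gave 5 lower and 2 higher of 13 tested in shScr cells (median −0.28), beside 63.8% of all genes called. PRRX2, a mesenchymal homeobox gene, went from 657 and 657 to 129 and 83.0 (−2.66), and TBX5, a factor of lung and limb mesenchyme, fell by 1.01. The count was 3 without replicate 2 of shScr day 0. At day 10, 3 of the 13 were higher in shIL1R cells, beside 9.21% of all genes called, among them PRRX2 (1.42) and TBX5 (0.74), PRRX2 at 272 and 286, and the PRRX2 call held with each library left out in turn. TBX5 lost its call without replicate 2 of shScr day 10, where the count was 1, and it was 7 without replicate 1 of shIL1R day 10. PRRX2 (1.65) and PRRX1 (0.59) were called in the interaction. PRRX1 itself was not called between genotypes at either day: it was lower in shIL1R cells at day 0 (−0.51) and near equal at day 10 (0.07). Without replicate 2 of shIL1R day 10 the genotype differences were 1.39 (PRRX2) and 0.63 (TBX5), and the interactions 1.62 (PRRX2) and 0.62 (PRRX1), all 4 still called. PRRX2 lost that call without either shScr day 0 library or replicate 2 of shIL1R day 0, and PRRX1 lost it in 9 of 12 fits with 1 library left out.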

How the data were processed

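The values deposited for the strand-specific RNA-seq libraries are normalized counts (a signal: reads over a size factor). The authors used TopHat, hg19, HTSeq and DESeq2 per the submitters' processing notes, which name no versions. The annotation and strand setting are not given in the sources used here. Dividing by the smallest value of each library gave whole reads for 100% of values (tolerance 0.001).

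The 13924 genes reaching 10 in 2 or more libraries were fitted with limma 3.58.1 in R 4.3.3 on log2(value + 1), with 6 group means and trended eBayes (degrees of freedom: 6 residual, 4.98 prior). Fold changes are on that scale and understate changes of low genes. Two-sided p-values were adjusted after Benjamini and Hochberg over all genes tested, and a gene was called below 0.05. The alternatives changed the pseudocount (0.5, 5), the filter (none, 50), the scaling (TMM), the model (replicate block, or the compared groups only) or the libraries (each left out). Recovered reads were tested with DESeq2 1.42.0 and edgeR 4.0.16. The fit was tested on simulated data.

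Members and gene lists were chosen with earlier results of these data known. The naming rule gave every HOX gene, values by library for those called and reaching a mean of 100, and up to 4 called genes per other list by size of the change in shScr cells at day 10, plus those called between genotypes. Values of HOXA2, HOXB8 and some genes without a call were added after they were seen, as were the PRRX1 and CYP26B1 interactions. Some genes that the rule names are not reported here, although they are in the counts. Promoters came from RefSeq (20 of 39 HOX genes matched).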

Additional observations from a re-analysis of the deposited data

Results flagged for a closer look

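HOXA5 moved in opposite directions in the 2 genotypes between day 0 and day 4. Both shScr libraries at day 4 lay below both at day 0, a log2 fold change of −0.65, and both shIL1R libraries lay above theirs, a change of 0.13 that was not called. The shIL1R values were 97.9 and 89.5 at day 0, already below the shScr ones of 136 and 111, and 101 and 104 at day 4. The difference between the 2 changes was not tested.

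HOXB7 did so between day 4 and day 10. In shScr cells both libraries at day 10 lay below both at day 4 (−0.21, not called), and in shIL1R cells both lay above (0.33, not called). This difference was not tested either. The opposite movement of HOXB7 is small in log2 terms and includes replicate 2 of shIL1R day 10, which stood apart, although replicate 1 also lay above both day 4 libraries, at 363 against 327 and 315.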

How the results depend on the processing

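Of 606 recomputed gene calls of HOX genes (29 calls under 21 settings, fewer where a gene missed a stricter filter), 508 kept their side of the threshold, 98 lost it and none changed sign. Pseudocounts of 0.5 and 5, TMM and the replicate block lost 0 of 29, edgeR 1, DESeq2 5, no filter 7 and the compared groups alone 10. Of 15 correlations of the replicate difference between groups, 4 were over 0.1 (−0.10 to 0.23). The highest were within shIL1R, day 4 with day 0 (0.23) and with day 10 (0.20), while day 0 with day 10 was 0.05. Also over 0.1 were shScr day 4 with shIL1R day 10 (0.19), a pair across genotypes, and shScr day 0 with day 10 (0.13). With the replicate block the same 29 calls were made. That block is common to both genotypes, so pairing inside a genotype was not tested. Without a filter the count in shScr cells was 12 for day 10 against day 0, 8 for day 10 against day 4 and 4 for day 4 against day 0. It was 3 for shIL1R day 4 against day 0, 5 for shIL1R day 10 against day 0 and 0 for the genotypes averaged over days. HOXA7, HOXA9, HOXA11, HOXB9 and HOXD3, all under 10 normalized counts, were each added in at least 1 comparison. With the compared groups alone it was 2 for shIL1R day 4 against day 0, 1 for day 10 against day 0, 0 for day 10 against day 4 and 0 for the genotypes at day 10. The averaged genotype count was 2 by edgeR and 2 by DESeq2, and the interaction 2 by DESeq2.

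With each library left out in turn, the counts of HOX genes in shScr cells were 1 to 3 (day 4 against day 0), 6 to 9 (day 10 against day 0) and 4 to 7 (day 10 against day 4). In shIL1R cells they were 0 to 2, 1 to 5 and 0 to 5. Between genotypes they were 0 to 0 at day 0, 0 to 1 at day 4, 0 to 8 at day 10, 0 to 6 averaged and 0 to 9 for the interaction. The other lists, left-out fits and TMM being chosen after the data were seen, gave for shScr day 10 against day 0 and for the genotypes at day 10: TALE 5 to 7 and 0 to 5, Polycomb 17 to 21 and 0 to 6, Trithorax 7 to 11 and 0 to 1, retinoic acid 3 to 4 and 0 to 5, noncoding 1 to 3 and 0 to 2, positional factors 3 to 7 and 1 to 7. TMM changed none of these list counts. Depth limits the 27 genes under the threshold.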
